A study of Homo sapiens with 20 samples.

Results

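HOXB13 lies in the HOXB cluster on chromosome 17 but stands well apart from HOXB1 to HOXB9, and the CTCF sites and active histone marks across the whole cluster were described here in a prostate cancer cell line and a lung fibroblast line. The members were the 10 genes HOXB1 to HOXB9 and HOXB13, all on the minus strand, with every CTCF peak and every H3K4me3 or H3K27ac region called within chr17:46550000-46850000 of hg19, a window of 300 kb. Of 790168 peaks and regions in the 20 lists, 241 lay in the window, 102 of them CTCF peaks and 139 histone regions. Measured from gene record to gene record, HOXB1 to HOXB9 took up 97.8 kb (chr17:46605888-46703720), and HOXB13 was annotated at chr17:46802125-46806112. Apart from the far end of the long HOXB7 record, no HOXB gene lay in the 88.4 kb between HOXB9 and the 10000 bp that flank HOXB13.

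HOX genes encode homeodomain transcription factors that give cells their position along the body axis, and their order along a cluster follows where they are used, with the highest-numbered genes acting furthest toward the tail end. HOXB13 is made in prostate epithelium throughout life. CTCF is a zinc finger protein that binds DNA at a consensus motif and can hold chromatin loops and insulate neighbouring domains, a role well known at HOX clusters. H3K4me3 marks active or poised promoters, and H3K27ac marks active promoters and enhancers.

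LNCaP cells are an established line from a lymph node metastasis of prostate cancer, and IMR90 cells are an established line of normal lung fibroblasts. Both were transfected with a pool of CTCF siRNAs or with non-targeting control siRNA at 20 nM, and chromatin was taken after 144 h. CTCF was profiled in LNCaP and IMR90 cells by a standard protocol and in IMR90 cells again by a protocol for low cell numbers. H3K4me3 and H3K27ac were profiled in LNCaP cells only, so the marks at HOXB13 were not compared between the lines. Each condition had 2 libraries. The standard libraries came from biological duplicates according to the methods, whereas the low-cell ones are given only as duplicates, so their spread may be technical. The lists give called peaks and carry no read depth.

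Whole lists differed in length. CTCF control lists held 19153 to 46364 peaks and CTCF siRNA lists 2021 to 19180, and the histone lists held 36637 to 99157 regions. The LNCaP list after CTCF siRNA with the fewest peaks, replicate 1, held 3724. That library had fewer reads than the other LNCaP CTCF libraries in the study's list of libraries. As a check of the LNCaP label, the promoters of the prostate luminal genes KLK3, KLK2, TMPRSS2 and FOXA1 each had an H3K27ac region in all 4 libraries. For H3K4me3 this held for KLK3 and FOXA1, and the promoter of KLK2 had none in any library. Of 6 fibroblast markers, COL1A1 alone had H3K4me3 in all 4 libraries, and none had H3K27ac in all 4. Among 5 lymphoid and myeloid genes and 2 hepatocyte and red cell genes, none had H3K4me3 in any library. There were no marks in IMR90 cells with which to check that label.

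Peaks of the 12 CTCF libraries merged into 23 positions in the window, and 16 of these were a control site in at least 1 experiment, that is, a merged peak with a call in both control libraries. Positions are named by their distance in kb from the HOXB13 start site, measured toward HOXB1. The consensus CTCF motif was searched on both strands up to 100 bp from each summit, allowing 2 mismatches. It was found at 9 of the 16 control positions, on the plus strand at 6 and on the minus strand at 3. Printed below are 8 of these 9, because they are bound sequences whose fate after CTCF siRNA is described, each as 54 bases of hg19 written 5′ to 3′ on the strand of the motif, with the motif in capitals.
178 kb position (chr17:46627872-46627925, plus strand): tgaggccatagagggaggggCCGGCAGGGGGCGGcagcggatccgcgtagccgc
166 kb position (chr17:46639701-46639754, plus strand): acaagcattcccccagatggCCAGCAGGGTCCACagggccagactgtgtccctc
135 kb position (chr17:46671381-46671434, minus strand): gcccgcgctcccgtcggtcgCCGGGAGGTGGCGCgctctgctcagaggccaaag
126 kb position (chr17:46680095-46680148, plus strand): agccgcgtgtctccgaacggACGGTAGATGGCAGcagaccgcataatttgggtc
110 kb position (chr17:46696086-46696139, minus strand): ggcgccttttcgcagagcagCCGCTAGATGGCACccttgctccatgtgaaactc
92.1 kb position (chr17:46713970-46714023, plus strand): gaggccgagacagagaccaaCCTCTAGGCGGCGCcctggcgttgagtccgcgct
56.9 kb position (chr17:46749149-46749202, plus strand): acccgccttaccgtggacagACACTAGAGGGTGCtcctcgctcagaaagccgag
50.2 kb position (chr17:46755942-46755995, plus strand): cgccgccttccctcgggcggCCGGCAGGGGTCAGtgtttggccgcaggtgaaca
The motif at the 110 kb position and that at the 178 kb position differed from the consensus by 1 base, and the other 7 by 2. The motif on the minus strand at the 110 kb position read 5′ to 3′ toward HOXB8 and HOXB1, and the motif on the plus strand at the 56.9 kb position read toward HOXB13. Each experiment was also searched from its own summits, which lay apart from the merged ones at some positions. On these, in LNCaP cells 7 of 8 control sites in the window held the motif, against 74.0% of all LNCaP control sites and 5.25% of windows placed 1000 bp away from them. In IMR90 cells 6 of 12 did with the standard protocol, against 71.6% of all such sites, and 6 of 9 did with the low-cell protocol, against 81.5%. The calls differed from those on the merged summits at 3 positions, since the motif was found at 115 kb from the LNCaP summit and at 205 kb from the IMR90 standard-protocol summit but not at 56.9 kb from the low-cell summit. On the merged summits, only 2 of the 16 positions kept a motif when 1 mismatch was allowed. GC content within 100 bp of the summit ran from 41.3% to 71.6% over the 16 positions, with a median of 57.0%.

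**Figure D1:**
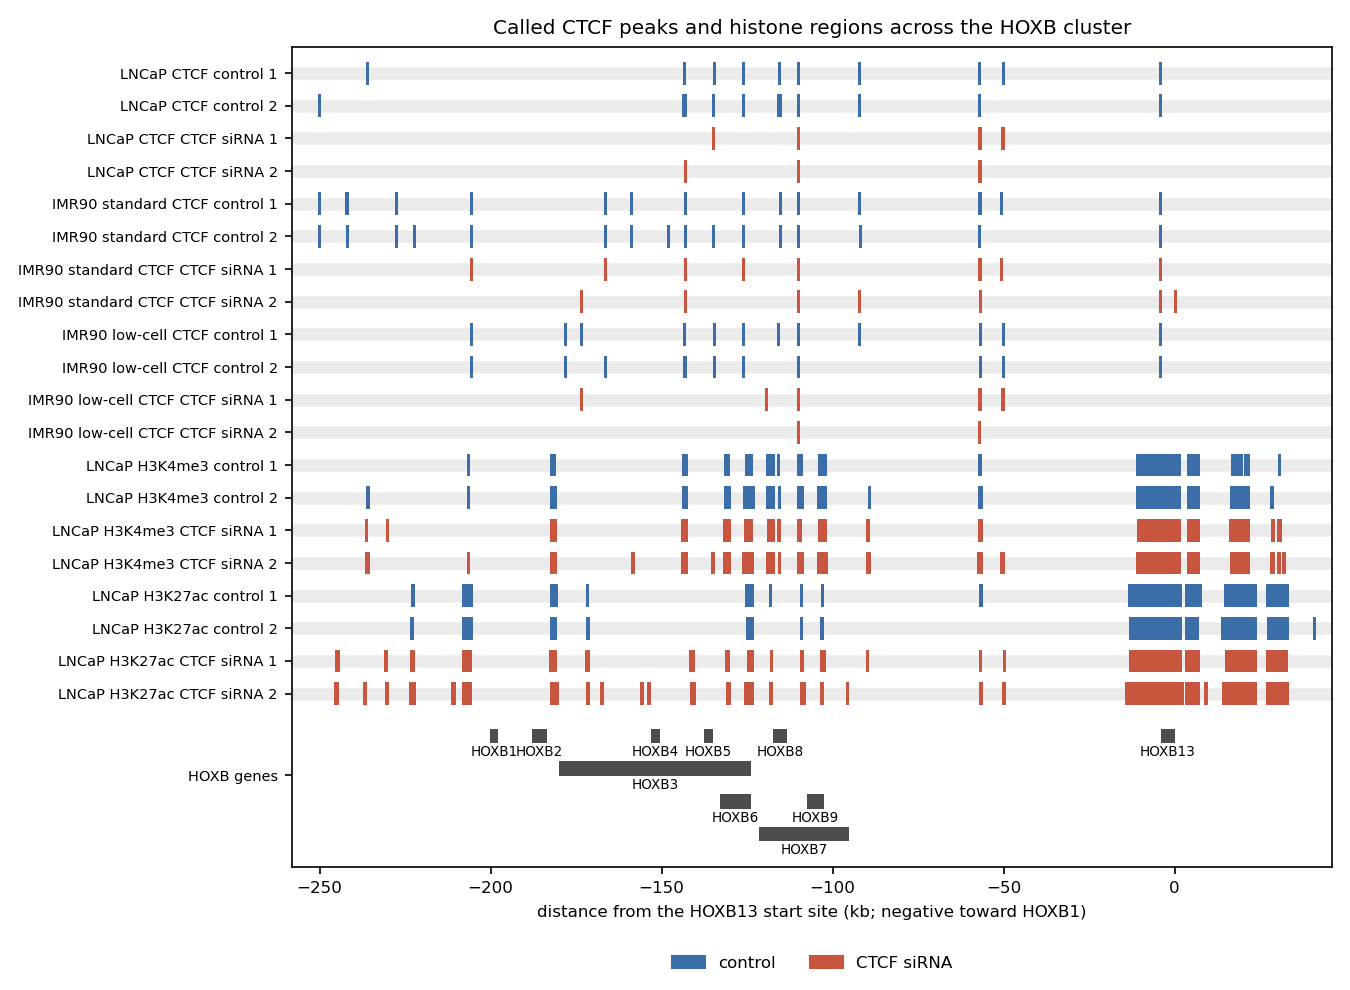
Called intervals in each of the 20 libraries, plotted by distance from the HOXB13 start site in kb (negative toward HOXB1), with control libraries in blue, CTCF siRNA libraries in red and the gene records in grey; intervals narrower than 0.9 kb are drawn 0.9 kb wide. The positions at 110 and 56.9 kb carry a CTCF peak in all 12 CTCF libraries, and the widest histone regions sit over HOXB13 in all 8 histone libraries.

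With the standard protocol, CTCF control sites were spread differently over the cluster in the 2 lines. LNCaP cells had 8 control sites, at 143, 135, 126, 115, 110, 92.1, 56.9 and 4.06 kb, which run from beside HOXB4 to the end of HOXB13. IMR90 cells had 12 with the standard protocol and 9 with the low-cell protocol. Of the 8 LNCaP sites, 6 overlapped an IMR90 standard-protocol control site, against 72.5% of all LNCaP control sites, so the share in the window was close to that over the genome. The other 2, at 135 and 92.1 kb, also had peaks in IMR90 libraries, and no LNCaP control site lacked a peak in every IMR90 library. At 92.1 kb both IMR90 control libraries had a peak, with fold enrichments of 6.32 and 5.96, but these peaks did not overlap each other and so made no control site.

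On the HOXB1 side, IMR90 cells had 6 standard-protocol control sites further out than 143 kb, at 250, 242, 227, 205, 166 and 159 kb, whereas LNCaP cells had none and showed only single-library peaks at 250 kb (fold enrichment 6.09) and 236 kb (17.1). Fold enrichment is the ratio of a peak's reads to the background around it, with no scaling from one library to another. Except for the 166 kb position in HOXB3, with values of 14.2 and 13.3, these IMR90 sites had fold enrichments of 5.08 to 8.52 in the control libraries, against a median of 13.2 over all IMR90 control sites. With IMR90 control sites put into 10 groups of equal size from weakest to strongest, these 5 fell in groups 1 and 2. The 205 kb position, which is 5058 bp from HOXB1, was also a control site with the low-cell protocol, with values of 15.2 and 6.56. In contrast, the 250, 242, 227 and 159 kb positions had no peak in any low-cell library. At 166 kb only low-cell control replicate 2 had a peak (4.99). The share of all IMR90 control sites without an LNCaP control site was not counted. The 178 kb position, in a coding exon of HOXB3 that the antisense gene HOXB-AS1 overlaps, was a control site with the low-cell protocol alone, with values of 7.12 and 7.23.

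Within the HOXB4 to HOXB9 stretch, the 143, 135 and 126 kb positions lay in introns of HOXB3, whose record runs past HOXB4 and HOXB5, and the 126 kb position also lay in HOXB6 and in an exon of HOXB-AS3. The 115 kb position overlapped a coding exon of HOXB8. The 110 kb position, chr17:46695795-46696553, lay between HOXB8 and HOXB9, 3.49 kb from the HOXB8 start and 2.38 kb from the end of HOXB9, inside an intron of the long HOXB7 record. Beyond HOXB9 came the 92.1 kb position in an exon of LINC03057, and the 56.9 kb position, chr17:46748979-46749478, and the 50.2 kb position in introns of LINC02086, both of them long non-coding RNA genes. The last position, 4.06 kb from the HOXB13 start at chr17:46801777-46802350, overlapped the 3′ end of HOXB13, a coding exon of PRAC2 and the microRNA gene MIR3185; no consensus motif was found there under these settings.

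After CTCF siRNA, peaks at 2 of the 16 positions were still called in every library, those at 110 and 56.9 kb. At the 110 kb position LNCaP fold enrichments were 31.6 and 40.2 with control siRNA, compared with 19.4 and 33.5 with CTCF siRNA. IMR90 standard-protocol values were 35.8 and 35.7 against 38.0 and 31.8, and low-cell values were 20.5 and 5.54 against 21.9 and 9.41. The treatments overlapped in all 3 experiments, and the means after CTCF siRNA stood at 73.7%, 97.6% and 120% of the control means. Up to 98.7% of a list's peaks had a lower fold enrichment, and the only library in which that share fell below 84.2% was low-cell control replicate 2, at 19.3%.

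At the 56.9 kb position LNCaP values were 27 and 26.1 with control siRNA against 11.9 and 29.2 with CTCF siRNA. In IMR90 cells they were 28.4 and 16.6 against 33.4 and 21.4 with the standard protocol, and 7.83 and 10.1 against 11.4 and 5.66 with the low-cell protocol. Control and CTCF siRNA libraries overlapped here too, with LNCaP CTCF siRNA replicate 1, the library with fewer reads, the lowest of the 4 LNCaP values. Over the genome, 14798 positions had a peak in all 6 control libraries and 7.64% of them had one in all 6 CTCF siRNA libraries. In the window 2 of 5 such positions did, the remaining 3 being those at 143, 126 and 4.06 kb. The genome-wide share was not matched for fold enrichment.

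The position at the end of HOXB13 differed between the experiments in what was called after CTCF siRNA, also between the IMR90 protocols. In LNCaP cells its fold enrichments were 16.3 and 20.8 in control cells, and no peak was called in either CTCF siRNA library. In IMR90 cells with the standard protocol the values were 31.5 and 21.9 with control siRNA against 19.6 and 18.1 with CTCF siRNA, a mean of 70.6% of the control mean, with all CTCF siRNA values below all control values. With the low-cell protocol they were 6.17 and 11 in control cells and no peak was called after CTCF siRNA. These differences were not tested, and the lists differed in length. The LNCaP CTCF siRNA lists held 3724 and 7730 peaks and the low-cell ones 5111 and 2021, against 19180 and 18539 for the IMR90 standard protocol. A control site was called persistent when both CTCF siRNA libraries still had a peak and lost otherwise. With sites of each experiment in 10 groups of equal size by control fold enrichment, 12.9% were persistent in this position's LNCaP group. The share was 95.5% in its IMR90 standard-protocol group and 4.46% in its low-cell group. For the 110 kb position the shares were 37.9% in LNCaP cells, 99.5% with the standard protocol and 19.8% with the low-cell protocol. For the 56.9 kb position they were 37.9%, 95.5% and 7.78% in the same order.

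**Figure D2:**
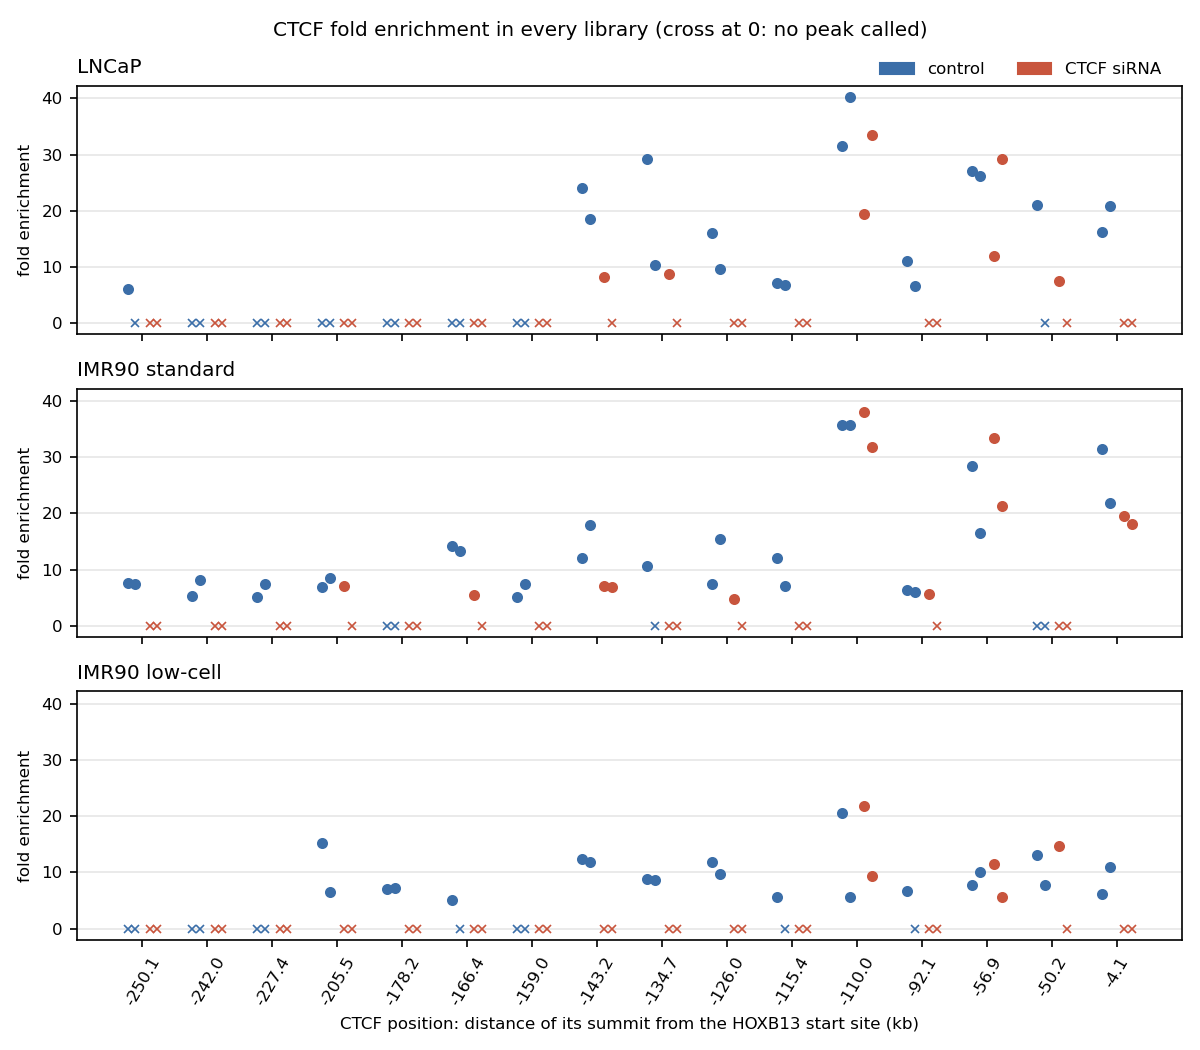
Fold enrichment of CTCF (vertical axis, no unit) at the 16 control positions, ordered by the distance of the summit from the HOXB13 start site in kb, with 1 point per library in blue for control and red for CTCF siRNA and a cross at 0 where no peak was called. The positions at 110 and 56.9 kb have points in all 12 libraries, whereas the position at 4.06 kb has red points in IMR90 standard-protocol libraries only.

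The other control sites were mostly lost. In LNCaP cells 6 of 8 control sites were lost, against 90.7% of all LNCaP control sites, and at 4 of the 8 neither library with CTCF siRNA had a peak, against 78.6% of all LNCaP control sites. The remaining 2 lost sites each kept a peak in 1 library, the 143 kb position at 8.18 in replicate 2 after 24.0 and 18.5 in control cells, and the 135 kb position at 8.72 in replicate 1 after 29.2 and 10.3. In IMR90 cells 8 of 12 were lost with the standard protocol, against 48.6% over the genome, and 7 of 9 with the low-cell protocol, against 89.1%. Standard-protocol sites lost at 250, 242, 227, 205 and 159 kb fell in groups 1 and 2 by control fold enrichment. In those groups 8.49% and 8.78% of all IMR90 standard-protocol control sites were persistent. The 4 persistent IMR90 standard-protocol sites were those at 143, 110, 56.9 and 4.06 kb. At 143 kb IMR90 values fell from 12.1 and 17.9 to 7.06 and 6.92, all CTCF siRNA values lying below the control values. The 50.2 kb position behaved unevenly, with LNCaP peaks in control replicate 1 (21.1) and CTCF siRNA replicate 1 (7.58) only, and low-cell values of 13 and 7.75 in control cells and 14.7 in 1 CTCF siRNA library. No site in the window was called with CTCF siRNA in both libraries of an experiment without any control peak. Such sites were rare over the genome too. They numbered 50 in LNCaP cells (33412 control sites), 129 with the IMR90 standard protocol (30516) and 9 with the low-cell protocol (16836).

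Counted per library, LNCaP cells had 10 and 11 CTCF peaks in the window with control siRNA against 4 and 3 with CTCF siRNA. IMR90 cells had 14 and 16 against 8 and 7 with the standard protocol, and 12 and 10 against 5 and 2 with the low-cell protocol. Every CTCF siRNA library lay below every control library of its experiment. The difference in means was -7 peaks in LNCaP cells and -7.50 in both IMR90 experiments, each with an exact two-sided permutation p of 0.333, the smallest that 2 against 2 libraries can give. Over the 3 experiments, with libraries permuted within each, the mean difference was -7.33 peaks (exact p = 0.00926, the smallest this design allows). The lists themselves shortened as well. After CTCF siRNA the LNCaP lists had 13.6% as many peaks as in control cells and the window 33.3%, against 51.9% and 50% for the IMR90 standard protocol and 18.1% and 31.8% for the low-cell protocol. The direction reversed when every list was shortened to the shortest of its experiment by p-value: LNCaP libraries then had 3 and 1 peaks in control cells against 4 and 2, IMR90 standard-protocol libraries 6 and 6 against 8 and 7, and low-cell libraries 1 and 0 against 3 and 2, a mean difference of 1.50 peaks (exact p = 0.0463).

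**Figure D3:**
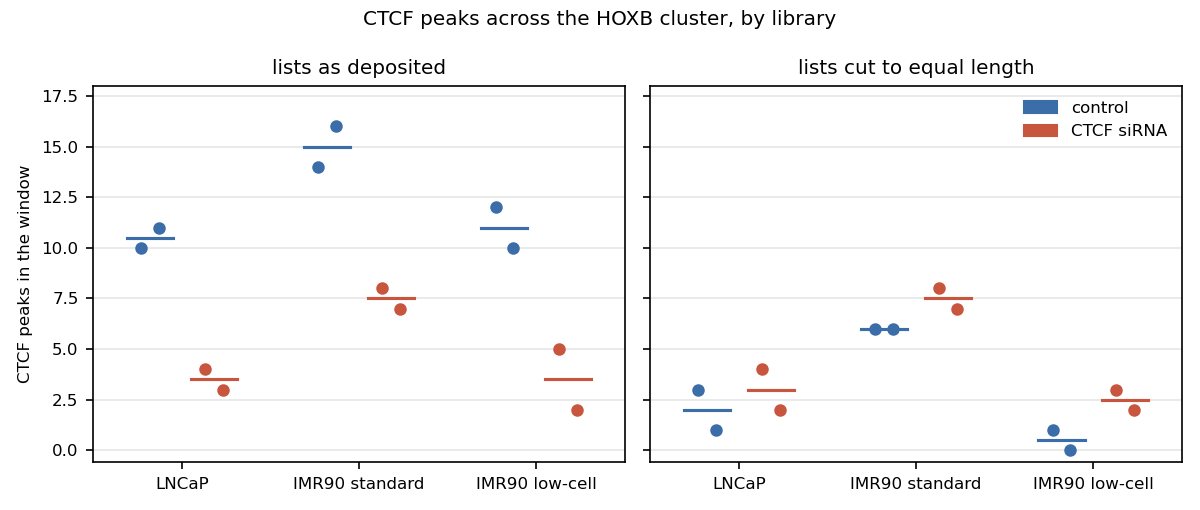
Number of CTCF peaks in the window (vertical axis) for each library, with the lists as deposited on the left and with every list shortened to the shortest of its experiment on the right; points are libraries, bars are the means of 2, blue is control and red is CTCF siRNA. On the left the red points lie below the blue ones in each experiment (4 and 3 against 10 and 11 in LNCaP cells), and on the right the red means lie above the blue means.

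Active marks divided the cluster in LNCaP cells. The HOXB13 segment, HOXB13 with 10000 bp on each side (chr17:46792125-46816112), was covered by H3K4me3 regions over 70.5% and 69.8% of its length with control siRNA, against 69.0% and 71.1% with CTCF siRNA. The HOXB1 to HOXB9 segment was covered over 15.6% and 17.1% against 16.3% and 20.0%. The segments did not overlap in any library, with a difference of 52.8 ± 1.55 percentage points (SD, n = 4 libraries). H3K27ac covered 87.1% and 82.1% of the HOXB13 segment with control siRNA, against 81.7% and 92.7% with CTCF siRNA. It covered 7.92% of the HOXB1 to HOXB9 segment in both control libraries, against 12% and 18% with CTCF siRNA. The difference between the segments was 74.4 ± 3.89 percentage points (SD, n = 4 libraries). For both marks the exact two-sided sign-flip permutation test gave p = 0.125, the smallest that 4 libraries allow. In the stretch between the segments H3K4me3 covered 2.07% and 2.92% with control siRNA and 3.94% and 6.09% with CTCF siRNA, against 2.07% and 2.68%, and 2.27% and 3.33%, of the whole genome. H3K27ac covered 1.30% and 0% of it with control siRNA and 3.09% and 4.10% with CTCF siRNA, which is below its cover of the whole genome in every library. For both marks the 2 CTCF siRNA libraries lay above the 2 control libraries there, a difference that was not tested.

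The HOXB13 gene was covered end to end by a single broad region of each mark, which also took in PRAC2, PRAC1 and MIR3185. The H3K4me3 region was 13150 and 13050 bp wide with control siRNA against 12900 and 13250 bp with CTCF siRNA, and it ranked 19, 19, 17 and 24 by width in lists of 36637 to 59920 regions, whose median width was 1250 to 1300 bp. The H3K27ac region was 15850 and 15550 bp wide against 15250 and 17100 bp, ranking 165, 100, 221 and 278. For both marks the CTCF siRNA widths lay on either side of the control widths. Merged over the libraries, the H3K4me3 region was chr17:46794801-46808050 and the H3K27ac region chr17:46791601-46808700, and they reached 1738 to 1938 bp upstream of the HOXB13 start for H3K4me3 and 2038 to 2588 bp for H3K27ac. Upstream of HOXB13, toward TTLL6, a tubulin glutamylase gene, regions in all 4 libraries of each mark followed at chr17:46809651-46813500 and chr17:46822101-46828250 for H3K4me3 and at chr17:46809001-46814050, chr17:46819751-46830250 and chr17:46832901-46839650 for H3K27ac. The nearest of these for each mark overlapped an exon of the long non-coding RNA gene ENSG00000242407. Inside HOXB3, an H3K27ac region in all 4 libraries at chr17:46633801-46635250 overlapped an exon of the antisense gene HOXB-AS2.

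Taken gene by gene with 2000 bp on each side, HOXB13 had the highest cover, 98.0% and 98.0% by H3K4me3 with control siRNA and 96.7% and 99.2% with CTCF siRNA, and 100% by H3K27ac in all 4 libraries. For H3K4me3 HOXB8 (44.1% ± 3.67), HOXB9 (42.2% ± 3.11) and HOXB6 (40.4% ± 7.34) came next and did not differ beyond their spread (SD, n = 4 libraries). HOXB7 followed at 28.5% ± 1.49, then HOXB3 at 14.6% ± 2.76 and HOXB2 at 12.1% ± 1.05. The spreads of HOXB3 and HOXB2 overlapped, but HOXB3 lay above HOXB2 within each of the 4 libraries. HOXB5 was covered in CTCF siRNA replicate 2 only, over 20.7%, and HOXB1 and HOXB4 had no H3K4me3 in any library. For H3K27ac the libraries separated by treatment at most genes. HOXB6 had 19.3% and 19.3% with control siRNA against 28.3% and 32.9% with CTCF siRNA, and HOXB9 had 15.2% and 18.5% against 25.0% and 34.8%. HOXB3 had 8.28% and 8.69% against 13.4% and 20.7%, and HOXB7 had 8.26% and 7.60% against 12.7% and 19.1%. HOXB2 had 12.4% and 13% against 14.3% and 13.6%, so in control cells it lay above HOXB3 and HOXB7 and below HOXB6 and HOXB9. In all of these genes both CTCF siRNA libraries lay above both control libraries, by little at HOXB2. H3K27ac cover of the whole genome was also higher with CTCF siRNA, at 5.69% and 7.31% against 5.23% and 3.95%. The share of all genes that separated this way was not counted. HOXB8 had 7.58% and 0% against 11.4% and 14.5%, HOXB4 had 16.5% in CTCF siRNA replicate 2 only, and HOXB1 and HOXB5 had none. The values are not independent, because the HOXB3 record contains HOXB4 and HOXB5 and meets HOXB6, and the HOXB7 record contains HOXB8 and HOXB9. The records of HOXB3 and HOXB7 are also the longest, and percent cover was not adjusted for length.

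**Figure D4:**
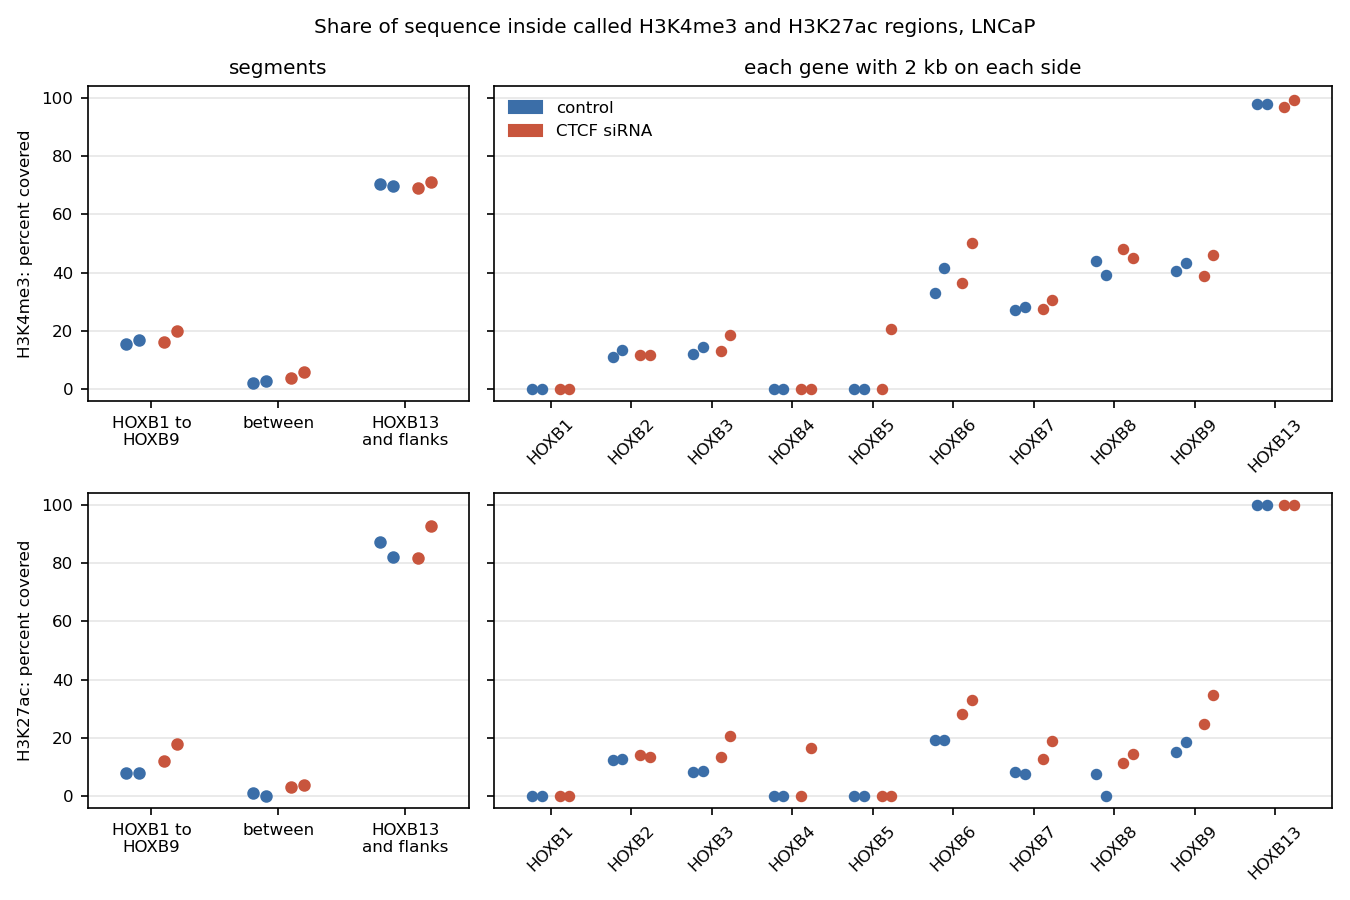
Percent of sequence inside called H3K4me3 regions (top) and H3K27ac regions (bottom) in LNCaP cells, for the 3 segments of the cluster (left; the HOXB13 segment has 10 kb on each side) and for each gene with 2 kb on each side (right); each point is a library, blue for control and red for CTCF siRNA. HOXB13 lies at 96.7% to 100% in every library, and no other gene exceeds 50.1%.

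A promoter, 1000 bp on each side of the start of the gene record, had H3K4me3 in both control libraries for 4 of the 10 genes, HOXB3, HOXB6, HOXB9 and HOXB13, against 60.9% of protein-coding genes. For H3K27ac it was 5 of 10, the same genes and HOXB2, against 51.2%. The H3K4me3 count rose to 6 of 10 with 2500 bp on each side, and also with any annotated start. No share over all genes is given for these settings. The records of HOXB3 and HOXB6 start next to each other and shared 1 region, and from the start of its canonical transcript HOXB3 had neither mark in any library, whereas HOXB7 then had H3K4me3 in all 4. HOXB1 and HOXB4 had neither mark at any annotated start. Among 29 genes of the HOXA, HOXC and HOXD clusters, 14 promoters had H3K4me3 in all 4 libraries and 11 in none, and 5 had H3K27ac in all 4 (HOXA6, HOXA9, HOXA11, HOXC4 and HOXC5) and 17 in none. Of 9 genes for HOX cofactors of the MEIS, PBX and PKNOX families, 7 had H3K4me3 in all 4 libraries and 4 had H3K27ac in all 4 (MEIS1, PBX2, PBX4 and PKNOX1). No share over all genes is given for calls in all 4 libraries or in none. Calls in both control libraries numbered 14 of 29 and 7 of 9 for H3K4me3, against 60.9% of protein-coding genes. For H3K27ac they numbered 5 of 29 and 4 of 9, against 51.2%.

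The other HOX genes were ranked by likeness to HOXB13. By Euclidean distance over the 8 histone libraries in percent of the gene with 2000 bp on each side covered, the most similar were HOXC5 (distance 123), HOXA10 (150) and HOXA9 (169). HOXC5 was covered by H3K4me3 over 28.5% to 63.4% and by H3K27ac over 72.9% to 93.4%. HOXB6 and HOXB9 were the nearest members of its own cluster, both at 190.

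After CTCF siRNA the cover of the HOXB13 segment did not move beyond the spread between libraries. H3K4me3 cover differed by -0.104 percentage points and H3K27ac cover by 2.56, and for both marks the CTCF siRNA values lay on either side of the control values (exact permutation p = 1 for each). In the HOXB1 to HOXB9 segment H3K4me3 cover differed by 1.76 percentage points (exact permutation p = 0.667) with overlapping libraries. H3K27ac cover there was higher in both CTCF siRNA libraries than in both control libraries, by 7.11 percentage points, with an exact permutation p of 0.333, the smallest that 2 against 2 libraries can give. H3K27ac regions covered 5.23% and 3.95% of the whole genome with control siRNA and 5.69% and 7.31% with CTCF siRNA, and the part of this in the HOXB1 to HOXB9 difference was tested only by shortening the lists. Lists of equal length left 5.33 percentage points, and keeping the lower-scoring 50% of every list, lower scores being ranked first, left 3.77. Neither setting matched the width of regions. The median H3K27ac width was 1700 bp in CTCF siRNA replicate 2, against 1300 to 1350 bp in the other H3K27ac libraries. Of the 18 H3K27ac regions in the window called in at least 2 libraries, 5 were called with CTCF siRNA only, in both libraries, against 13.2% of all H3K27ac regions, and none in the reverse pattern, against 1.85%. These 5 lay at chr17:46560451-46562050 and chr17:46575001-46576300 beyond HOXB1, chr17:46664251-46666100 in HOXB3, chr17:46674551-46676300 over HOXB6 and chr17:46755751-46756750 in LINC02086, the last overlapping the 50.2 kb CTCF position. Of 17 H3K4me3 regions in the window 12 were called in all 4 libraries and none in only 1 of the treatments, against 6.44% of all H3K4me3 regions called in both CTCF siRNA libraries only and 2.55% in both control libraries only.

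CTCF sites and H3K4me3 coincided often in the cluster. In LNCaP control cells 5 of the 8 control sites overlapped an H3K4me3 region in both libraries, at 143, 115, 110, 56.9 and 4.06 kb, against 12.8% of all LNCaP control sites, and 1 of 8 overlapped an H3K27ac region in both, at 4.06 kb, against 15.7%. H3K4me3 regions at the 143, 115 and 4.06 kb positions were still called in both CTCF siRNA libraries, where the CTCF site was lost. The narrow H3K4me3 region over the 56.9 kb position, chr17:46748301-46750150, was the only one called in all 4 libraries that lay wholly between HOXB9 and the HOXB13 segment.

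Set beside the other HOX clusters, each taken with 50000 bp on both sides, the HOXB window was longer, at 300 kb against 198 to 217 kb. LNCaP cells had 5, 5 and 7 control sites in the HOXA, HOXC and HOXD clusters, of which 3, 1 and 1 were persistent, compared with 2 of 8 in the HOXB window. Of the positions with a CTCF peak in all 6 control libraries, 2 of 5 in HOXA had one in all 12 libraries. The same held for 2 of 5 in HOXB, 1 of 2 in HOXC and 0 of 4 in HOXD, against 7.64% over the genome. These differences were not tested.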

How the data were processed

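ChIP-seq lists of 20 libraries were used for CTCF, H3K4me3 and H3K27ac, 2 in each group given by the labels. Reads of the standard libraries were aligned by the authors with Bowtie to hg19. The authors dropped duplicates and reads with several positions, and called CTCF peaks with MACS2 and histone regions with PeakRanger, in each library separately. Low-cell reads were trimmed with cutadapt, aligned with BWA, freed of duplicates by molecular identifiers and called with MACS2. The deposited CTCF lists give a fold enrichment (a ratio to local background), and p-values and q-values on a −log10 scale, with 0.05 as the authors' limit. The deposited histone lists carry a score of no stated meaning, used here only to rank regions, with the lowest scores first. The broad H3K27ac region over HOXB13 scored 0.001 or 0.002 in each library, so shortened lists kept the low scores. A threshold list shows whether a peak was called, not how far binding fell, and it holds no depth.

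Peaks of the 22 autosomes and of X and Y were merged by an overlap of at least 1 bp. Genes came from GENCODE release 44 on hg19; coordinates count from 1. Histone regions of a mark's 4 libraries were merged and kept when called in at least 2. Tests were exact permutations over libraries, written in Python 3.11.15 with numpy 2.4.6, pandas 2.3.3 and pysam 0.24.0, and plots used matplotlib 3.10.9. The functions for merging, overlap, motifs and permutation were tested on simulated data, and those that shorten lists were not. Some marker genes and 1 motif sequence are not reported here. The members and gene lists were chosen with earlier results of these data known. Named in the text were the 10 genes, every gene of the window meeting a control site or region, every control position, and listed genes whose promoters were called in all 4 libraries of a mark or in none. Alternatives were other overlaps, a q-value limit of 0.001, presence in either library, lists of equal length, percent of the list, other segments, promoters and motif settings, the lower-scoring 50% of histone lists, the replicate block and leaving out each library.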

Additional observations from a re-analysis of the deposited data

How the results depend on the processing

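Of 162 alternative values for 20 results, 141 kept their direction and, for counts, stayed within 1.5 times the reported count. Lists of equal length, which hold fewer peaks, changed the CTCF results. LNCaP control sites then numbered 1 (the 110 kb position), with 0 lost and 1 shared with IMR90 cells, IMR90 standard-protocol sites 5 with 1 lost, and low-cell sites 0 with 0 lost. The difference in peak number became 1 in LNCaP cells, 1.50 with the IMR90 standard protocol, 2 with the low-cell protocol and 1.50 over the 3 experiments. As a percent of the list it became 0.0481 in LNCaP cells, 0.0427 with the low-cell protocol and 0.0298 percentage points over the 3 experiments (exact p = 0.0463), while the IMR90 standard protocol did not reverse (-0.00155). In the lower-scoring 50% of the lists, H3K27ac cover of the HOXB13 segment differed by -0.0500 percentage points. With 1 mismatch, 2 positions held the motif. Counting as lost only LNCaP sites with no peak in either CTCF siRNA library, a definition chosen after seeing the data, gave 4 of 8, against 78.6% of all LNCaP control sites.

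Leaving out each library in turn gave 8 to 11 LNCaP control sites with 5 to 9 lost and 6 to 8 shared, 12 to 16 IMR90 standard-protocol sites with 5 to 12 lost (5 without CTCF siRNA replicate 2), and 9 to 12 low-cell sites with 6 to 10 lost. The difference in peak number ran from -7.50 to -6.50 in LNCaP cells, -8.50 to -6.50 and -9 to -6 in IMR90 cells and -7.83 to -6.83 over the 3 experiments. The difference between segments ran from 52.2 to 53.4 percentage points for H3K4me3 and 72.8 to 76.0 for H3K27ac. CTCF siRNA minus control ran from -1.15 to 0.938 for H3K4me3 and from -2.92 to 8.03 for H3K27ac at HOXB13, and from -0.102 to 3.63 and 4.11 to 10.1 at HOXB1 to HOXB9. H3K4me3 changed sign at HOXB13 without control replicate 1 (0.208) or CTCF siRNA replicate 1 (0.938) and at HOXB1 to HOXB9 without CTCF siRNA replicate 2, and H3K27ac at HOXB13 without CTCF siRNA replicate 2.

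Groups share replicate numbers, but deviations of equal numbers correlated by only 0.0148 to 0.212 over the sites of an experiment and mark, and nothing in the labels ties them. With the replicate block the differences in peak number remained -7, -7.50, -7.50 and -7.33, the last with an exact p of 0.0312.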
